A study of Mus musculus with 4 samples.

Results

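Gene expression in hippocampal cells that were fluorescent for a Vegfr3::YFP reporter was compared with that in cells that were not, both cultured without VEGF-C. The comparison rests on 2 of the 4 libraries of the study, 1 from YFP-positive and 1 from YFP-negative cells. Every gene symbol of the deposited tables entered it unless a spreadsheet had turned the symbol into a calendar date. Of 23334 symbols kept, 11265 stood at 1 FPKM or more in at least 1 of the 2 libraries, and these are the genes described. FPKM counts the sequenced fragments of a gene, scaled by transcript length and by the size of the library.

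The cells were sorted by fluorescence from 2 groups of 16 Vegfr3::YFP mice on a C57BL/6 background, and all 4 libraries therefore share the reporter allele. Per the labels, the YFP-positive cells were neural stem cells that originated in the subgranular zone, and the YFP-negative cells were neurons of that same origin. Both were kept in culture for 18 h, without VEGF-C here and with 50 ng/ml of it in the other two libraries. Each library pooled material of both groups of mice, per the study's design text, and no difference has a replicate check. No p-value was computed, and intervals printed below cover counting error only. The age and sex of the mice are not given in the sources used here.

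The subgranular zone is the layer of the dentate gyrus in which new neurons form in the adult hippocampus. Its radial glia-like stem cells share many genes with astrocytes, and they give rise to intermediate progenitors, then to immature neurons, and at last to granule neurons. Vegfr3, gene symbol Flt4, is the receptor tyrosine kinase for VEGF-C and is best known from lymphatic endothelium. Oligodendrocytes, which make myelin, and microglia, the resident macrophages of the brain, lie in the same tissue.

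Differences are given as log2((FPKM + 1) / (FPKM + 1)), YFP-positive over YFP-negative, and a gene counts as higher or lower from 2-fold on that scale. By this rule 3395 genes were higher in the YFP-positive library, which is 30.1% of those described, and 5257 were lower, which is 46.7%. A further 2613 genes lay within 2-fold. Where 2 levels are given for a gene, that of the YFP-positive library comes first. Higher genes made up 39.2% of those counted as different, and that share depended on scaling: it was 27.5% after centring on genes at 1 FPKM or more in both libraries, 21.8% after setting the upper quartiles equal and 45.3% after quantile normalization. The median log2 ratio was -0.66, with quartiles of -2.41 and 1.33. Differences of 5 log2 units or more were found for 153 higher and 278 lower genes.

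**Figure D1:**
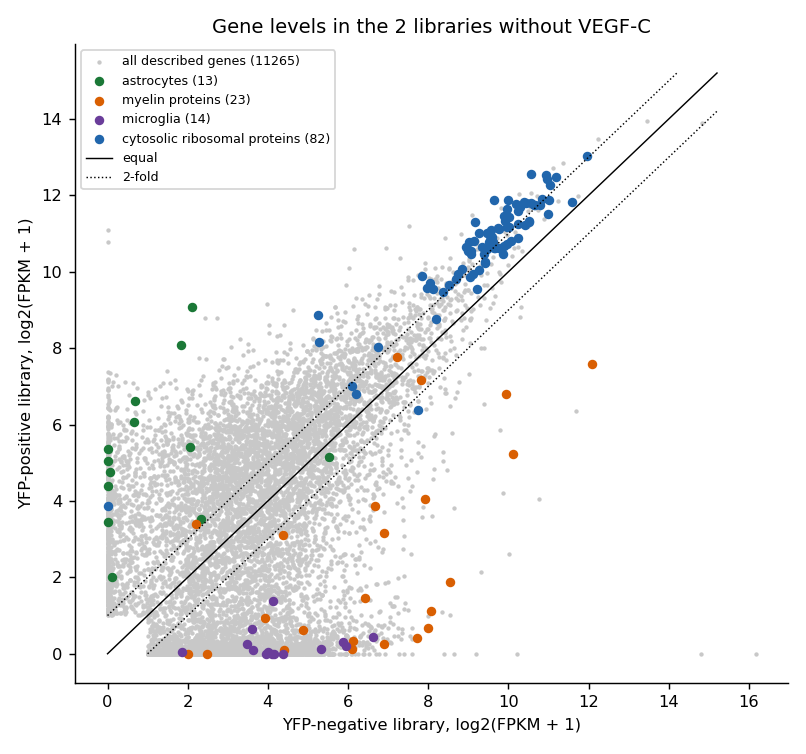
Each point is a gene by its log2(FPKM + 1) in the YFP-negative (x axis) and YFP-positive (y axis) library, with members of 4 lists in colour; the solid line marks equal levels and dotted lines a 2-fold difference. Most astrocyte genes lie above the line, most myelin genes and all microglia genes below it, and most ribosomal protein genes near the upper 2-fold line.

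The YFP-positive library detected fewer genes. It held 9669 symbols above 0 from 8561944 implied fragments, the number of fragments behind the normalized counts, while the YFP-negative library held 13132 from 16275369. After both were thinned to 1 depth the numbers were 9630 and 12812. All 2311 genes listed at 0 in the YFP-positive library entered the lower genes, and 287 genes listed at 0 in the YFP-negative library entered the higher ones. Among genes at 1 to 2 FPKM in the YFP-negative library, 47.7% were listed at 0 in the YFP-positive one, and among those at 200 FPKM or more 1.48% were. In the opposite direction the shares were 7.41% and 0.31%. Some of these zeros fall on genes that every cell uses: Gusb, a lysosomal hydrolase used as a reference gene, had a 0 in the YFP-positive library and 9.70 FPKM in the other.

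Direction went with level. Of genes with a mean of 0.5 to 2 FPKM over both libraries, 76.8% were lower and 10.6% higher in YFP-positive cells. At a mean of 500 FPKM or more, 5.12% were lower and 58.1% higher. Among 3834 genes whose mean reached 20 FPKM, here called well-expressed, 49.8% were higher and 16.4% lower, and their median log2 ratio was 0.995. Each gene list below is read against the values of all described genes and, where its members are abundant, against those of well-expressed genes. Genes at 1 FPKM or more in both libraries had a median of 0.67, which is the shift that centring on them would remove.

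**Figure D2:**
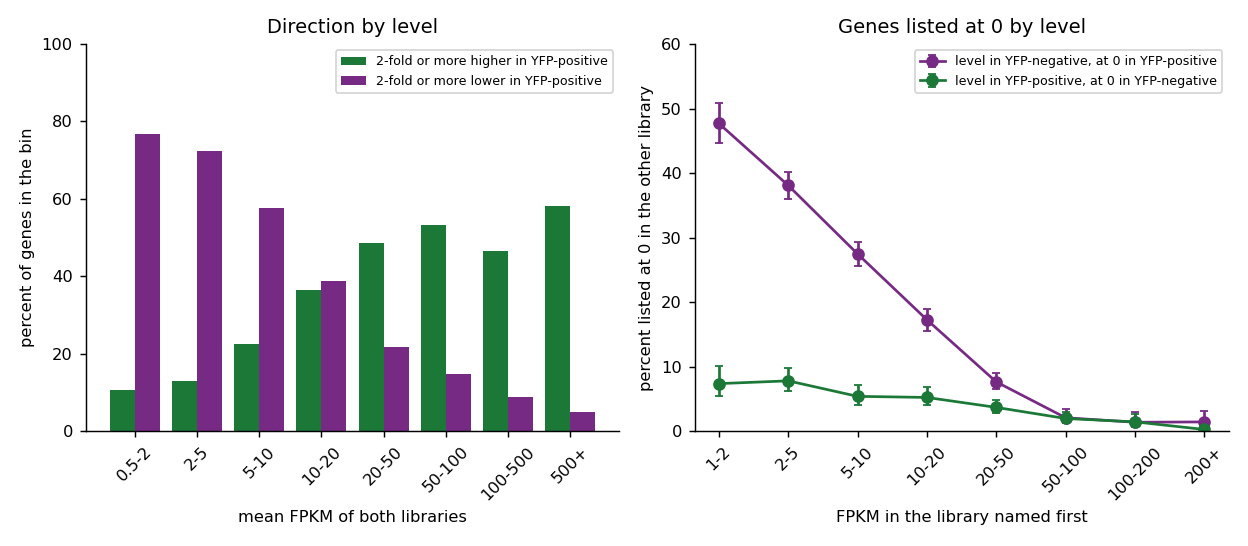
Left, the percent of genes 2-fold or more higher or lower in the YFP-positive library by mean FPKM. Right, the percent of genes listed at 0 in the other library by FPKM, with 95% Wilson intervals. Lower genes make up 76.8% of the lowest bin and 5.12% of the highest.

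Flt4 itself, which lies on chromosome 11 from 49609263 to 49652739 (mm10), did not check the sort in the 2 libraries without VEGF-C. The library labelled YFP-positive listed it at 0, and 7 fragments in the YFP-negative library gave 0.0584 FPKM. A count of 0 at the depth of the YFP-positive library allows up to 0.0747 FPKM (3 fragments). The level of Flt4 in these 2 libraries was thus not distinguishable at this depth. In the pair with VEGF-C, Flt4 was at 2.01 FPKM from 860 fragments in YFP-positive and 0.348 FPKM from 15 fragments in YFP-negative cells, higher where the labels say YFP-positive.

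The labelled identity of the YFP-negative cells was set against markers of neurons. Rbfox3, which encodes the neuronal nuclear protein NeuN, was at 0.150 FPKM there. Slc17a7, the vesicular glutamate transporter of hippocampal excitatory neurons, and Calb1, calbindin of mature granule neurons, were listed at 0 in both libraries. Of 18 mature neuron markers 9 were described, and they summed to 84.9 FPKM in the YFP-negative and 42.5 FPKM in the YFP-positive library. Prox1, the transcription factor of granule neurons, stood at 6.58 FPKM with YFP and 4.83 FPKM without it. The 14 immature neuron markers summed to 523.9 FPKM in the YFP-negative and 1260.5 FPKM in the YFP-positive library. Among them Stmn1 was at 307 and Elavl3 at 27.3 FPKM in the YFP-negative library. In that library, labelled neurons, the 24 myelin protein genes summed to 8783 FPKM and the 19 microglia markers to 390.4 FPKM. In pooled cells, fewer cells of a type and less RNA per cell cannot be told apart. Because RNA of glia and immune cells stood beside that of neuronal markers, the group is called YFP-negative cells below, not neurons.

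Genes of radial glia-like stem cells were mostly higher in YFP-positive cells. Of 17 markers 12 were described, 9 of them higher and 3 lower, with a median log2 ratio of 3.51. Slc1a3, the glial glutamate transporter GLAST, was at 214 FPKM with YFP and 3.86 FPKM without it, a 55.6-fold difference (95% interval 49.7 to 62.3). Hopx, a marker of quiescent dentate stem cells, was at 62.7 against 5.65 FPKM, and the lipid-binding protein gene Fabp7 at 68.2 against 3.36 FPKM. Nr2e1, the nuclear receptor TLX of adult neural stem cells, was at 43.8 against 1.31 FPKM. Emx1, a homeobox factor of the dorsal forebrain, was at 37.6 FPKM in YFP-positive cells and listed at 0 in YFP-negative cells. The lower members were Nes, the intermediate filament nestin, at 39.0 against 82.3 FPKM, the lysophosphatidic acid receptor Lpar1 at 2.43 against 86.0 FPKM, and Id4 at 0.660 against 4.60 FPKM. Lpar1 is also known from oligodendrocytes, and Nes is also present in endothelium and in other progenitors. Vnn1, Tfap2c and Riiad1 were listed at 0 in both libraries.

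Astrocyte markers had the higher median of the 2 glial lists, at 4.72. Of 15 markers 13 were described, 12 were higher and 0 lower. Aqp4, the water channel of astrocyte endfeet, was at 31.9 against 0.00963 FPKM from 1112 and 1 fragments. The bicarbonate cotransporter gene Slc4a4 was at 40.2 against 0.0131 FPKM, and Acsbg1, an acyl-CoA synthetase, at 26.3 against 0.0363 FPKM. Ntsr2 and Aldh1l1, a neurotensin receptor and the folate enzyme used to mark all astrocytes, reached 19.9 and 10.01 FPKM with YFP and were listed at 0 without it. S100b, which oligodendrocytes also use, was within 2-fold at 34.2 against 44.7 FPKM. Gjb6, the second astrocyte connexin, was listed at 0 in both libraries, so the marker set was not complete in YFP-positive cells.

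Genes by which astrocytes handle transmitters and ions showed the same direction with named exceptions. Of 11 described genes of glutamate and GABA uptake and metabolism 8 were higher and 2 lower. Glul, glutamine synthetase, was at 299 FPKM with YFP and 50.6 FPKM without it. The lower members were Abat, which breaks down GABA, at 0.0656 against 5.01 FPKM, and Slc1a5, a transporter of neutral amino acids, listed at 0 against 1.99 FPKM. Outside that list, the GABA-synthesizing enzymes Gad1 and Gad2 were listed at 0 with YFP and reached 6.47 and 4.99 FPKM without it. In the list of potassium, water and bicarbonate handling, 8 of 12 described members were higher and 4 lower. Atp1b2, a beta subunit of the sodium pump, was at 66.2 against 0.594 FPKM. Kcnj10, the potassium channel Kir4.1 of astrocytes and oligodendrocytes, was lower at 5.09 against 14.1 FPKM. Car2, the carbonic anhydrase of oligodendrocytes, was at 15.7 against 1729.7 FPKM, a 110.2-fold difference (95% interval 95.2 to 128).

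Genes linked to reactive astrocytes were present in both libraries. Of 10 described members 7 were higher with YFP and 1 was lower, the median being 1.49. Vim, the intermediate filament vimentin, was at 2333 FPKM with YFP and 184 FPKM without it. Gfap, the filament of astrocytes and radial glia, was at 35.6 against 4.64 FPKM and Osmr, a receptor of oncostatin M, at 36.6 against 1.44 FPKM. Srgn, a proteoglycan core protein of immune cells, was the lower member at 0.182 against 33.6 FPKM.

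Genes of the neuronal lineage were taken by stage. Of 9 described intermediate progenitor markers 7 were higher and 1 was lower, the median being 2.02. Neurod4, a proneural factor, was at 41.3 against 0.0149 FPKM and Ccnd2, the cyclin of dividing progenitors, at 207 against 6.38 FPKM. Eomes, the factor Tbr2 that defines intermediate progenitors, was at 4.53 FPKM from 114 fragments in YFP-positive cells and listed at 0 in the others. The lower member was Gadd45g, a growth arrest gene, at 112 against 341 FPKM.

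Among 11 described immature neuron markers 7 were higher and 2 were lower, the median being 1.90. Neurod1, a factor of newborn granule neurons, was at 135 FPKM with YFP and 0.550 FPKM without it from 2230 and 27 fragments. Gap43, a growth cone protein, was at 252 against 22.2 FPKM, and Tubb3, the neuronal beta-tubulin, at 166 against 24.2 FPKM. Dcx, doublecortin of migrating neuroblasts, stood closer at 28.9 against 11.7 FPKM. Elavl3, a neuronal RNA-binding protein, was lower at 4.33 against 27.3 FPKM, while Stmn1, a microtubule regulator, lay within 2-fold at 178 against 307 FPKM. Mature neuron markers leaned the other way, with 2 of 9 higher and 5 lower and a median of -1.59. Snap25, a protein of transmitter release, was at 6.28 against 21.1 FPKM, and Syn1, a synaptic vesicle protein, at 0.0469 against 6.44 FPKM. After quantile normalization the median of the mature list turned to 0.16. The highest of its levels was that of Nefm, a neurofilament, at 16.1 against 26.7 FPKM, and lower calls were the more frequent ones among all genes of low level.

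**Figure D3:**
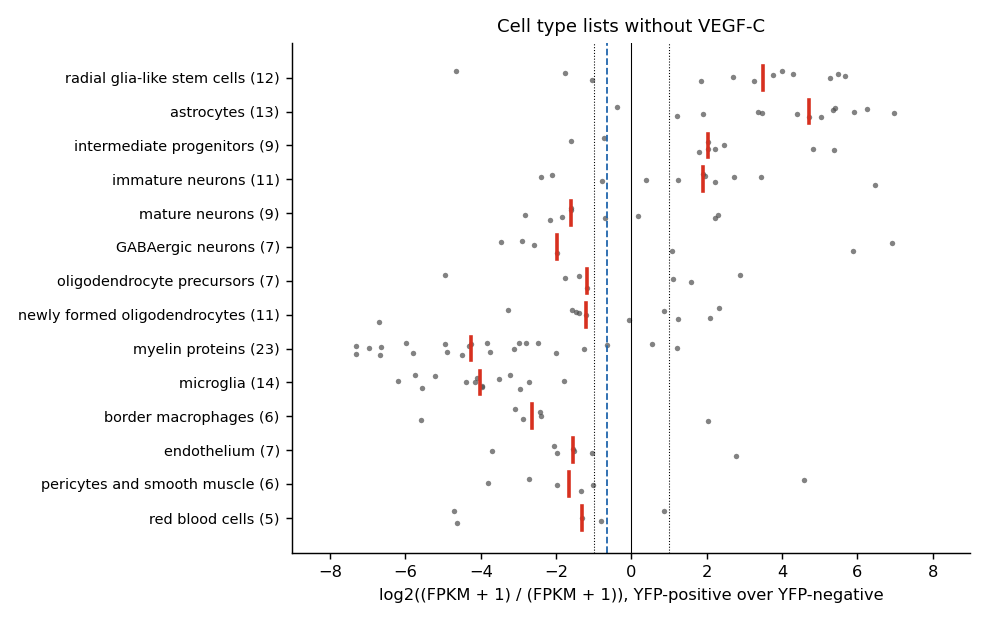
Each point is 1 described member of a cell type list by its log2 ratio (x axis), with the number described in brackets; red bars mark list medians, the dashed blue line the median of all described genes, and dotted lines 2-fold. Radial glia, astrocyte, progenitor and immature neuron medians lie above 1, and myelin and microglia medians below -4.

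Myelin genes were mostly lower in YFP-positive cells. Of 23 described myelin protein genes 20 were lower with YFP and 1 was higher, with a median of -4.26; among the 16 well-expressed ones 14 were lower and 0 higher. Mog and Mag, proteins of the outer and inner myelin surface, were at 0.0914 against 67.9 FPKM and 0.187 against 117 FPKM. Pllp, plasmolipin, was at 0.327 against 208 FPKM. Ermn, a cytoskeletal protein of mature oligodendrocytes, was at 1.77 against 84.8 FPKM. The higher member was Plp2, at 9.56 against 3.58 FPKM, which despite its name is a membrane protein of many cell types. Gpm6b, a proteolipid that astrocytes also express, was within 2-fold at 216 against 148 FPKM. Myelin RNA was not at 0 in YFP-positive cells, where the list summed to 759.7 FPKM.

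The transcription factors of the oligodendrocyte lineage had 4 of 13 described members higher and 6 lower, with a median of -0.94, and 1 higher and 7 lower after centring. The share of lower members, 46.2%, was near that of all described genes. Among the 6 well-expressed factors 4 were higher and 0 lower. Sox10, needed at all oligodendrocyte stages, was at 249 FPKM with YFP and 115 FPKM without it, and Olig2 at 56.8 against 18.4 FPKM, both more than 2-fold higher in YFP-positive cells, although with upper quartiles set equal the log2 ratio of Sox10 turned to -0.071. In the pair with VEGF-C both lay the other way, Sox10 at 20.1 against 429 FPKM and Olig2 at 0.0993 against 14.6 FPKM. Olig1, the neighbour of Olig2 on the same chromosome, was at 0.211 against 36.8 FPKM. Myrf, which drives the myelin genes, was at 0.0780 against 27.4 FPKM, and Nkx2-2 was listed at 0 in YFP-positive cells against 8.65 FPKM. Pdgfra, the growth factor receptor that defines oligodendrocyte precursors, was listed at 0 in both libraries, and Cspg4, the precursor proteoglycan NG2, stood at 0.0179 against 0.468 FPKM. Of 7 described precursor markers 3 were higher and 4 lower, and of 11 markers of newly formed oligodendrocytes 3 were higher and 6 lower. Bcas1, which marks newly myelinating cells, was at 0.557 against 161 FPKM, from 11 and 9855 fragments.

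Enzymes that make myelin lipids followed the myelin proteins in part. Of 23 described, 15 were lower in YFP-positive cells and 3 higher, with a median of -2.29. Ugt8a, which makes galactosylceramide, was at 0.288 against 64.9 FPKM, and Fa2h, which hydroxylates its fatty acids, was listed at 0 against 13.8 FPKM. Elovl1, an elongase of very long fatty acids, was at 1.79 against 148 FPKM. The desaturase genes parted: Fads2 was at 62.8 against 0.0707 FPKM and Scd2 at 53.04 against 286 FPKM, while Scd1 was within 2-fold at 39.2 against 36.0 FPKM. Ptgds, the prostaglandin synthase and lipid carrier of oligodendrocytes and meninges, was at 81.4 against 3275 FPKM. Of 15 described lipid carriers, the list that holds Ptgds, 5 were higher and 7 lower. Higher members were Apoe and Clu, apolipoproteins of astrocytes, at 1569.9 against 122.9 FPKM and 441 against 103 FPKM, and Lcat, which esterifies cholesterol on lipoproteins, at 35.5 FPKM and listed at 0 in YFP-negative cells.

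Cholesterol synthesis genes had 5 of 23 described members higher and 11 lower in YFP-positive cells, with a median of -0.87. Among the 18 well-expressed members the median was -0.66, against 0.995 for all well-expressed genes. Idi1, the isopentenyl isomerase, was at 1.20 FPKM with YFP and 178 FPKM without it, a 148-fold difference (95% interval 98.8 to 234). Sc5d and Ebp, late sterol enzymes, were at 10.3 against 164 FPKM and 0.179 against 59.8 FPKM, and Lss, which closes the sterol rings, was listed at 0 against 11.9 FPKM. In the opposite direction lay Nsdhl at 147 against 6.07 FPKM, Mvk, mevalonate kinase, at 47.5 against 2.60 FPKM, and Fdps, which makes farnesyl diphosphate, at 478 against 217 FPKM, which turned to a log2 ratio of -0.0387 with upper quartiles set equal. Hmgcs1, a synthase early in the pathway, was at 159.8 against 517 FPKM. Its promoter is shown because sterol genes are known targets of SREBP, whose response element was searched as TCACCCCAC on both strands and found once (capitals). It was held by 1 of 15 cholesterol synthesis promoters in the RefSeq table and by 0.518% of all 27025. The window runs from 250 bases before to 50 after the start of the gene (chr13:119690101-119690400, GRCm38.p6, plus strand).
Hmgcs1: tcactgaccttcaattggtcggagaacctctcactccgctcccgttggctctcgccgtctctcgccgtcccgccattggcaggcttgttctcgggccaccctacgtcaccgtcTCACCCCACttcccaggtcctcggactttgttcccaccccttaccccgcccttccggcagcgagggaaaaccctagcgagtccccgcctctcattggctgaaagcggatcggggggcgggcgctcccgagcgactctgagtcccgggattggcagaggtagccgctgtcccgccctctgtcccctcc

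Microglia genes were lower without exception among those described. Of 19 markers 14 were described and all 14 were lower in YFP-positive cells, with a median of -4.03 and summed levels of 3.62 against 390.4 FPKM. Csf1r, the receptor on which microglia depend for survival, was at 0.0381 against 15.1 FPKM, from 1 and 1184 fragments. Cx3cr1, the fractalkine receptor, was at 0.0787 against 11.3 FPKM, and Trem2, a lipid-sensing receptor, was listed at 0 against 16.2 FPKM. P2ry12 and Tmem119, which define resting microglia, were listed at 0 in both libraries. Markers of border macrophages were lower in 5 of 6, among them Pf4, a platelet and macrophage chemokine, listed at 0 against 47.4 FPKM. A separate list of macrophage lineage transcription factors was mixed, with 5 of 12 described members higher and 7 lower. Its 2 well-expressed members were both higher. Klf2 was at 39.4 against 0.0287 FPKM and Irf5 at 0.0696 against 19.5 FPKM.

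Immune functions of these cells followed the same direction to different degrees. All 3 chains of complement C1q are on the microglia list too; of 11 described complement genes 10 were lower and 0 higher, among them the receptor genes C3ar1, at 0.102 against 33.2 FPKM, and C5ar1, at 6.40 against 42.5 FPKM. Genes of the major histocompatibility complex and antigen presentation were lower for 18 of 21 and higher for 0. H2-D1, a class I heavy chain, was at 7.54 against 168 FPKM, and Cd74, the class II invariant chain, at 0.665 against 92.1 FPKM, while B2m, the class I light chain of nearly all cells, was within 2-fold at 256 against 399.7 FPKM. Chemokines and their receptors were lower for 19 of 25 and higher for 4. Ccl4 and Ccl5 were at 5.09 against 1029.6 FPKM and 3.43 against 632 FPKM, whereas Ccl3 was within 2-fold at 280.3 against 522 FPKM. Cxcr4, a receptor of migrating progenitors, was higher at 47.0 against 1.52 FPKM, and Cxcl10, an interferon-induced chemokine, at 66.1 against 27.5 FPKM.

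Interleukin and TNF family genes included large differences both ways. Of 40 described members 25 were lower and 10 higher, but of the 9 well-expressed ones 1 was lower and 5 were higher. Il33, an alarmin that oligodendrocytes and astrocytes release, was at 1.13 FPKM with YFP and 323 FPKM without it. Tnfrsf1a, the main TNF receptor, was at 85.0 against 2.38 FPKM, and Il1r2, the decoy receptor of interleukin 1, was at 104 FPKM in YFP-positive cells and listed at 0 in the others. Phagocytic and Fc receptor genes were lower for 16 of 22 and higher for 5. Cd14, the endotoxin co-receptor, was at 115 against 420.2 FPKM. Axl, a receptor for dying cells that astrocytes share, was at 64.4 against 1.94 FPKM. Lysosomal genes were lower for 33 of 60 and higher for 8, with a median of -1.49, and among the 35 well-expressed ones in 13 and 6. Their 55.0% lower was near the 46.7% of all described genes, and of all well-expressed genes 16.4% were lower.

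Interferon-stimulated genes were lower for 23 of 30 and higher for 5, with a median of -2.17; of the 6 that were well-expressed, 4 were higher and 1 lower. Bst2, tetherin, was listed at 0 in YFP-positive cells against 33.8 FPKM. Ifitm3, a restriction factor for viruses, stood at 114 against 53.2 FPKM (log2 ratio -0.0786 with upper quartiles set equal), while Isg15, a ubiquitin-like protein, was within 2-fold at 28.5 against 46.1 FPKM. The promoters of these 2 genes are shown because both hold the element that interferon factors bind, 2 copies of GAAA with 2 bases between, searched on both strands and with overlaps allowed (capitals). It was held by 13 of the 22 promoters of described members in the table, against 3.52% of all 27025. Genes with it were higher in 3 and lower in 9 of 13, and genes without it higher in 2 and lower in 6 of 9. The windows are chr4:156200769-156201068 and chr7:141010695-141010994 (RefSeq, GRCm38.p6, minus strand for both).
Isg15: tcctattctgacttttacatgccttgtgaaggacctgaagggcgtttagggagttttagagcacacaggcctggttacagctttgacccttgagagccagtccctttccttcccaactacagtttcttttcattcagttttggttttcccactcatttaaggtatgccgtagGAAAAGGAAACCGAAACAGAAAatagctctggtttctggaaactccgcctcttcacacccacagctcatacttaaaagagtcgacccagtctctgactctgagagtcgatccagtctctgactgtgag
Ifitm3: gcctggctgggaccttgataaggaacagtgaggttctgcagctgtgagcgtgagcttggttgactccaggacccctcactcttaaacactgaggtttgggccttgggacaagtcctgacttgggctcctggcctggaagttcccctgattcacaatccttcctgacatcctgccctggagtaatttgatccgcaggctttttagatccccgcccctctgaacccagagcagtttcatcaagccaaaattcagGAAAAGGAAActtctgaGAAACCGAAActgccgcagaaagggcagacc

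Endothelial and mural cell markers were mostly lower in YFP-positive cells. Of 7 described endothelial markers 6 were lower in YFP-positive cells and 1 higher, and Cdh5, the endothelial cadherin, was listed at 0 against 3.17 FPKM. Slc2a1, the glucose transporter of brain endothelium that other cells share, was at 3.58 against 58.4 FPKM. Pericyte and smooth muscle markers were lower in 5 of 6. Among these markers 1 endothelial and 0 pericyte ones were well-expressed. Of all genes at a mean of 2 to 5 FPKM 72.3% were lower, so these counts lie near those of low-level genes. In the pair with VEGF-C the endothelial median was 0.12 and the pericyte median -0.06. After quantile normalization of the pair without VEGF-C, 2 endothelial and 2 pericyte markers were lower and 1 of each higher. Red blood cell genes summed to 145.1 FPKM with YFP and 376.02 FPKM without it, with 0 of 5 higher and 3 lower. The haemoglobin gene Hba-a1 was at 126 against 313 FPKM; its estimate is uncertain because Hba-a2 is a near-identical copy. Of 1117 odorant receptor symbols, which hippocampal cells are not known for, 6 reached 1 FPKM. Together the cell type values show RNA of glia and immune cells in the YFP-negative library; their part in the differences of other lists was not tested.

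Transcription factors of stem cells and forebrain identity were mostly higher in YFP-positive cells. Of 24 described forebrain patterning factors 18 were higher and 3 were lower, the median being 2.45; of the 12 well-expressed ones 10 were higher and 0 lower. Nfia and Nfib, which direct gliogenesis, were at 214 against 25.1 FPKM and 137 against 14.7 FPKM, and the related Nfix was within 2-fold at 81.5 against 54.0 FPKM. Lhx2, a homeobox factor of cortical progenitors, was at 36.8 FPKM in YFP-positive cells and listed at 0 in the others, as was Otx1, at 53.9 FPKM. Emx2, a relative of Emx1, was nearly equal at 2.78 against 3.08 FPKM.

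Sox factors were higher in 9 of 11 described members and lower in 2. Sox9, the factor of radial glia and astrocytes, was at 445 FPKM with YFP and 5.58 FPKM without it, a 79.7-fold difference (95% interval 72.7 to 87.6). Sox5 and Sox6, related factors of progenitors, were at 27.0 against 0.0137 FPKM and 17.4 against 0.0359 FPKM. The neuronal factors Sox4 and Sox11 were at 52.8 against 12.3 FPKM and 89.3 against 18.4 FPKM. The lower members were Sox8, at 10.8 against 25.1 FPKM, and Sox21, at 0.155 against 2.40 FPKM.

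The Id and Hes/Hey genes, which hold back differentiation downstream of BMP and Notch, had 6 of 9 described members higher and 2 lower. Id1 and Id3 were at 566 against 14.9 FPKM and 407 against 59.7 FPKM, while Id2 lay within 2-fold at 487 against 281 FPKM. Hes1 was at 45.6 against 0.923 FPKM. Hes5 was at 49.6 FPKM from 390 fragments and listed at 0 in YFP-negative cells, and Hes6, which opposes Hes1, was listed at 0 in YFP-positive cells against 5.76 FPKM. The Hes5 promoter is shown because Hes5 is a Notch target listed at 0 in 1 of the 2 libraries. The core letters bound by the Notch partner RBPJ, TGGGAA, were found on both strands of it, 2 matches in all (capitals). They are common letters: 25.6% of all promoters and 3 of 6 Id and Hes/Hey promoters in the table hold them. The window is chr4:154960673-154960972 (RefSeq, GRCm38.p6, plus strand).
Hes5: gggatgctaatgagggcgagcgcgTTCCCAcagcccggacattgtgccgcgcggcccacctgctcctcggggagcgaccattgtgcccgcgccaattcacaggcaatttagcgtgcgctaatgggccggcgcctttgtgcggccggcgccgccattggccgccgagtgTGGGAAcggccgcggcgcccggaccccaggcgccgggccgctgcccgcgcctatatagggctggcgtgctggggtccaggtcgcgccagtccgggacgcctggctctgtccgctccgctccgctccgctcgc

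AP-1 and early response factors were higher in 13 of 21 described members and lower in 4. Of the 17 well-expressed ones 10 were higher and 3 lower, against 49.8% and 16.4% of all well-expressed genes. Jun and Fos, the AP-1 partners, were at 288 against 46.9 FPKM and 301 against 149 FPKM, and Maff, a small Maf protein, at 114 against 1.02 FPKM. Egr1 was equal within 2-fold at 194 against 187 FPKM, while Egr2, its relative in myelinating and immune cells, was at 0.353 against 77.4 FPKM.

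Signalling genes were divided by pathway. BMP and TGF-beta genes were higher for 11 of 20 described and lower for 5. Among the ligands, Inhba, the activin A subunit, was at 438 FPKM with YFP and 4.42 FPKM without it, a 99.1-fold difference (95% interval 83.03 to 119), and Bmp6 at 26.1 against 2.72 FPKM. Among the receptors, Acvr2b and Bmpr1a were at 56.8 against 0.340 FPKM and 26.0 against 0.615 FPKM. Smad7, the inhibitor that both branches induce, was at 81.6 against 14.6 FPKM. Of 13 described Notch genes 7 were higher and 4 lower, but 4 and 5 after centring, and 7 and 1 after quantile normalization. The receptors Notch1 and Notch2 were at 54.9 against 8.34 FPKM and 67.3 against 5.01 FPKM, and the ligand Jag1 was within 2-fold at 31.1 against 19.2 FPKM.

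Wnt pathway genes were higher for 11 of 24 and lower for 8, and in 7 and 8 after centring. Axin2, a target of the pathway, was at 23.4 against 0.0116 FPKM, and Lef1, a factor that acts in it, was listed at 0 in YFP-positive cells and at 0.0443 FPKM in the others. Growth factor receptors were higher for 10 of 19 and lower for 5, in 7 and 6 after centring, and in 12 and 4 after quantile normalization. Fgfr1 was at 126 against 13.3 FPKM, Ntrk2, the receptor of BDNF, at 25.4 against 0.865 FPKM, and Ntrk3 at 72.8 FPKM in YFP-positive cells and listed at 0 in the others. Egfr, which marks activated stem cells, was listed at 0 against 0.526 FPKM. Growth factor ligands were lower for 18 of 35 and higher for 14, but 12 and 15 after quantile normalization, and of the 8 well-expressed members 6 were higher. Hbegf, a ligand of Egfr, was at 316 against 17.7 FPKM, and Tgfa, another, at 2.33 against 63.9 FPKM. Vegfa, whose receptors include Kdr, was at 75.9 against 10.8 FPKM. A list named for ERK feedback, which also holds Etv and tyrosine phosphatase genes, had 13 members higher and 24 lower of 44. These shares, 29.5% and 54.5%, were near the 30.1% and 46.7% of all described genes. Of its 11 well-expressed members 5 were higher and 2 lower. Spry2 was at 1534 against 70.3 FPKM, Dusp8 at 62.0 against 4.40 FPKM and Dusp10, a phosphatase of stress kinases, at 0.720 against 137 FPKM.

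Several families of matrix and guidance genes were described. Brain proteoglycans and tenascins were higher for 14 of 21 described and lower for 5, with a median of 2.95. Ncan and Bcan, proteoglycans of the brain's hyaluronan matrix, were at 118 against 3.37 FPKM and 77.0 against 0.630 FPKM. Sdc4, a cell surface heparan sulfate proteoglycan, was at 803 against 61.2 FPKM, whereas Gpc1, another, was lower at 9.46 against 55.1 FPKM. Collagens were higher for 10 of 12 and lower for 2. Col5a2 was at 98.1 against 0.0220 FPKM, and Col4a1, of basement membranes, at 32.1 against 0.411 FPKM. Laminins and integrins had 8 members higher and 8 lower of 17, and 8 and 2 after quantile normalization. Itgb1, the common integrin beta chain, was at 79.6 against 18.0 FPKM, and Itgb2, the chain of leukocytes, at 0.209 against 24.8 FPKM. Ephrins and Eph receptors were higher for 9 of 11 and lower for 2. Efnb2 was at 58.8 against 4.73 FPKM and Efnb3 at 0.231 against 10.1 FPKM. Semaphorins, plexins and neuropilins, a second family of guidance molecules, were higher for 9 of 18 and lower for 7, and in 6 and 7 after centring.

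Genes of neuronal function had no shared direction. Synaptic vesicle and release genes were higher in 10 and lower in 16 of 33, with a median of -0.99, but in 12 and 10 after quantile normalization. Vamp2, the vesicle SNARE, was at 246 against 53.6 FPKM, and Syt4, a synaptotagmin, at 45.2 against 214 FPKM. Voltage-gated channel genes were lower for 12 of 18 and higher for 5, and in 5 and 6 after quantile normalization; Kcna1 was at 0.562 against 35.3 FPKM. Neuropeptides and granins were lower for 9 of 13 and higher for 2. Pomc and Gal, both peptide precursors, were listed at 0 in YFP-positive cells against 48.1 and 37.9 FPKM, and Prl, prolactin, against 103 FPKM. Npy, a peptide of inhibitory neurons, was at 119 FPKM in YFP-positive cells and listed at 0 in the others. Clustered protocadherins, which give neurons their surface identity, were lower in 13 of 18 and higher in 5, and 12 of those 18 were listed at 0 in YFP-positive cells. Their 72.2% lower was near the 72.3% of all genes at a mean of 2 to 5 FPKM. The 6 members above 0 in both libraries had a median of 1.68. Pcdhga5 was at 82.2 against 0.0458 FPKM. Members of that cluster share exons, so their estimates are uncertain.

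Cell cycle genes lay in both directions. DNA replication genes were lower in 26 of 44 described and higher in 9, with a median of -1.73, and of 0.25 among the 12 well-expressed ones. Mcm2, a subunit of the replicative helicase, was at 0.0881 against 14.4 FPKM, and Orc6, of the origin complex, at 0.933 against 51.2 FPKM, while Cdt1, which licenses origins, was at 46.5 against 0.281 FPKM, and Top2a, a topoisomerase of dividing cells, at 13.1 against 0.0187 FPKM. Pcna, the sliding clamp, was within 2-fold at 273 against 146 FPKM. Mitosis genes were higher in 15 and lower in 15 of 36, with a median of -0.34 that turned to 0.79 after quantile normalization. Ccnb1, the mitotic cyclin, was at 127 against 0.198 FPKM, and Plk1, a mitotic kinase, at 31.1 against 0.0233 FPKM. Lower members were Mad2l1, of the spindle checkpoint, at 0.0904 against 17.2 FPKM, Ube2c, a ubiquitin enzyme of mitotic exit, at 0.183 against 16.2 FPKM, and Aurka, a spindle pole kinase, at 0.0810 against 11.8 FPKM, each with 1 fragment in the YFP-positive library. No test compared the replication and mitosis lists. Mki67 and Cdk1, which dividing cells all express, were listed at 0 in YFP-positive cells. G1 cyclins, kinases and inhibitors were higher for 10 of 18 and lower for 4. Ccnd1 was at 98.6 against 27.7 FPKM and Myc, a growth-promoting factor, at 475 against 87.1 FPKM. Cdkn1a, the p21 inhibitor, was within 2-fold at 1014 against 867 FPKM. Histone genes were lower for 22 of 33 and higher for 4, and 17 of the 33 were listed at 0 in YFP-positive cells. Many histone genes encode the same protein and lack poly(A) tails, so their estimates are uncertain.

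**Figure D4:**
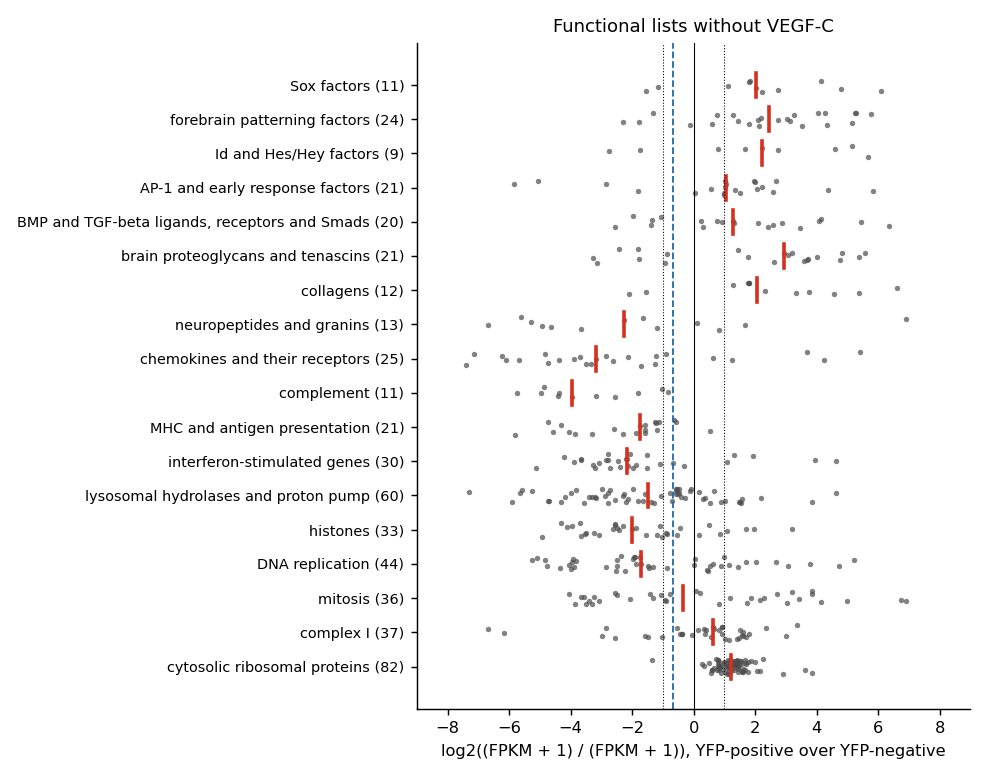
Each point is 1 described member of a functional list by its log2 ratio (x axis), with the number described in brackets; red bars mark list medians, the dashed blue line the median of all described genes, and dotted lines 2-fold. Ribosomal protein genes cluster around a median of 1.23.

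Lists of machinery that every cell needs differed in their medians. Cytosolic ribosomal protein genes were higher for 57 of 82 described and lower for 1, with a median of 1.23 against 0.995 for well-expressed genes; their sums were 180046 FPKM with YFP and 77342 FPKM without it. Centred on genes at 1 FPKM or more in both libraries, 11 were higher and 1 lower, and after quantile normalization 7 and 1. Rplp0, of the ribosomal stalk, was at 3292 FPKM with YFP and 1246 FPKM without it, and Rpl3 at 1771 against 1074 FPKM. Mitochondrial ribosomal proteins had a median of -0.01, with 24 higher and 27 lower of 76, and of 0.56 among the 56 well-expressed ones. Splicing factors were higher in 24 and lower in 7 of 54, proteasome subunits in 12 and 9 of 45, and complex I subunits in 13 and 8 of 37. Their medians were 0.96, 0.32 and 0.64. Among their well-expressed members the medians were 0.991, 0.42 and 0.64, against 0.995 for all well-expressed genes. After centring, the medians of all described members of the proteasome and of complex I turned to -0.35 and -0.03.

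Glycolysis genes were higher for 14 of 27 described and lower for 8. After centring 10 were higher and 10 lower, and after quantile normalization 9 and 9. Of the 18 well-expressed ones 10 were higher and 4 lower, against 49.8% and 16.4% of all well-expressed genes. Aldoc, the aldolase of astrocytes, was at 536 FPKM with YFP and 3.30 FPKM without it, a 162-fold difference (95% interval 134 to 198), while Aldoa, the form of most cells, was within 2-fold at 1567 against 1127 FPKM. Gapdh was at 1298 against 516 FPKM. Etfa, which passes electrons from fatty acid oxidation, was at 169 against 1.79 FPKM. Iron and antioxidant genes were among the most abundant of both libraries. The ferritin light chain Ftl1 was at 15694 against 11319.5 FPKM and the heavy chain Fth1 at 15214 against 29043 FPKM, both within 2-fold, in opposite directions. Hmox1, heme oxygenase 1, was at 6693 against 2202 FPKM, and Prdx6, a peroxiredoxin of astrocytes, at 1315 against 155 FPKM. The metallothioneins Mt1, Mt2 and Mt3 were at 4159.8 against 1232 FPKM, 1208 against 239 FPKM and 781 against 158 FPKM. In the integrated stress response 9 of 28 genes were higher and 10 lower: Atf4 was at 1084 against 367 FPKM, and its targets Ddit3 and Asns were at 446 against 1259 FPKM and 11.2 against 270.0 FPKM.

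Some closely related genes parted between the 2 libraries; these pairs were chosen after their values were seen. Gja1, connexin 43 of astrocytes, was at 268 FPKM with YFP and 2.55 FPKM without it, a 105-fold difference (95% interval 89.8 to 123.96), and Gjb1, connexin 32 of oligodendrocytes, was at 2.65 against 372 FPKM, a 141-fold difference the other way (95.2 to 218). Gjc3, a further oligodendrocyte connexin, was at 13.5 against 100.4 FPKM. Among tubulins 9 of 12 were higher and 2 lower; Tubb2b, of young neurons and glia, was at 243 against 30.6 FPKM, and Tubb4a, of oligodendrocytes and neurons, at 38.1 against 332 FPKM. S100a10, the annexin A2 partner, was at 1068 against 241 FPKM, and S100a13 at 1.53 against 131 FPKM. Anxa2 was at 539 against 100.01 FPKM, and Anxa4 at 0.0767 against 26.0 FPKM.

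**Figure D5:**
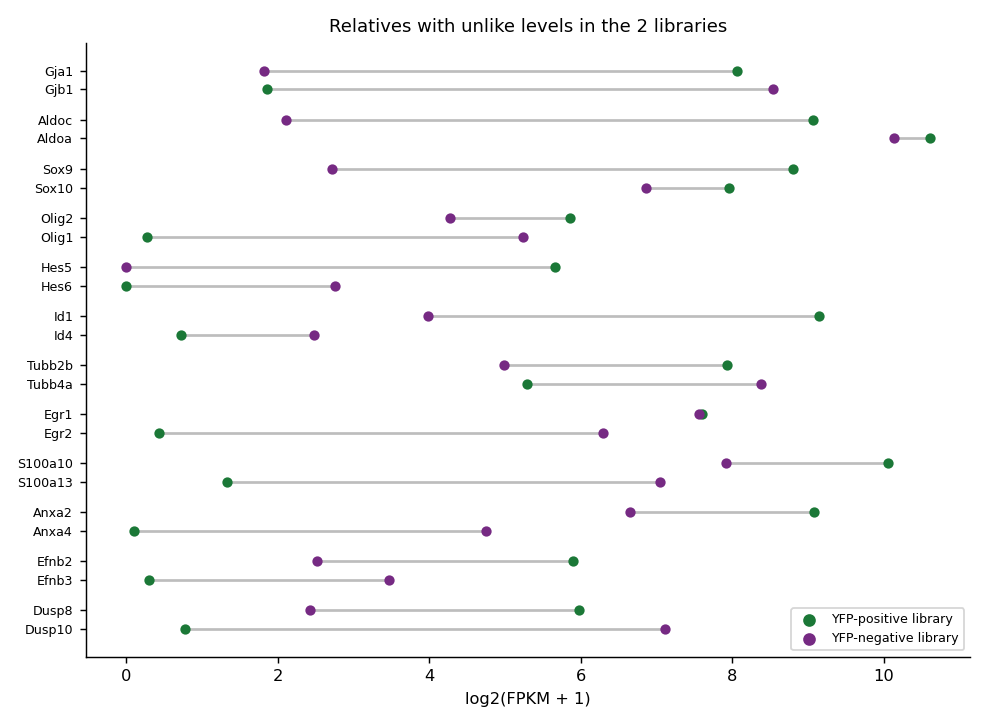
Pairs of related genes by their log2(FPKM + 1) in the YFP-positive (green) and YFP-negative (purple) library; a grey line joins the 2 values of 1 gene. Gja1 and Gjb1 lie in opposite orders, as do Olig2 and Olig1, and Tubb2b and Tubb4a.

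The most extreme ratios were also taken without regard to lists, from protein-coding genes at 20 FPKM or more in 1 library and with 10 implied fragments or more in both. Of the 15 highest, several are given above (Aldoc, Neurod1, Inhba, Gja1, Sox9, Etfa, Maff). Others were Tinagl1, a matrix protein, at 108 against 0.451 FPKM; Mlc1, the astrocyte protein lost in a leukodystrophy, at 96.7 against 0.613 FPKM; Rcn1, a calcium-binding protein of the endoplasmic reticulum, at 83.6 against 0.392 FPKM; and Dtnbp1, dysbindin, at 109 against 0.996 FPKM. Gm7120, Ppp1r18 and Rabl5 were also among them, at 122.8, 64.7 and 121 FPKM in YFP-positive cells, with 0.672, 0.189 and 1.28 FPKM in the others. Among the 15 lowest, beside Ccl4, Il33, Bcas1, Car2, Gjb1, Idi1, Dusp10 and Elovl1, stood the myelin protein Mobp at 0.588 against 253 FPKM and Rtkn, rhotekin, at 1.39 against 141 FPKM. Sec11c, a signal peptidase subunit, was at 17.4 against 938 FPKM, and Slain1, a microtubule protein, at 1.15 against 109 FPKM. Rrp1, Arl14ep and Dpy19l1 were at 169.6, 101 and 93.4 FPKM without YFP and at 1.53, 0.547 and 0.587 FPKM with it.

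Some protein-coding genes were abundant in 1 library and listed at 0 in the other. Cd79b, the B cell receptor chain, was at 145.3 FPKM in YFP-positive cells, where the other lymphocyte markers named here, Cd79a, Cd3e and Ms4a1 were listed at 0. S100a8, of granulocytes and activated macrophages, was at 119.9 against 14.8 FPKM. Gpx8, Ntpcr, Spc25, Agt and Necab2 were at 138, 122, 118, 91.5 and 85.6 FPKM. Agt, angiotensinogen, is an astrocyte product, and Spc25 belongs to the kinetochore. In the opposite direction, beside Prl, stood Smim11, 2010003O02Rik, Qpct and Chrac1 at 83.2, 81.98, 71.3 and 66.0 FPKM in YFP-negative cells, and Kctd13, Trib3 and Manbal at 61.2, 60.2 and 58.1 FPKM. With VEGF-C, YFP-positive cells gave 42.9 FPKM of Smim11, and Chrac1 was at 3.98 FPKM. Genes at 200 FPKM or more with the most equal levels were Arhgdia, at 341 against 340.0 FPKM, Srxn1, at 228 against 229 FPKM, Myl6, at 306 against 303 FPKM, Atp5g2, at 400.1 against 393 FPKM, Tomm6, at 334 against 342 FPKM, and Eif3h, at 223 against 216 FPKM.

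Short RNA genes were set apart by the FPKM scale. Rows of microRNA genes held 12.6% of the summed FPKM of the YFP-negative library and 0.654% of that of the YFP-positive one, but 0.012% and 0.0285% of the normalized counts. Mir5136 alone stood at 73901 FPKM from 2 implied fragments and Snord96a, a small nucleolar RNA, at 28588 FPKM from 3, and both were listed at 0 in YFP-positive cells. These rows are no measure of abundant RNA. With protein-coding genes alone, 3286 of 10752 were higher and 4945 were lower, the median being -0.59.

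Sex-linked genes differed between the libraries. Xist, the RNA of the inactive X chromosome in females, was at 15.3 FPKM with YFP and 0.00392 FPKM without it, from 1359 and 1 fragments. Of 4 described Y-linked genes 3 were lower with YFP and 0 were higher: Eif2s3y was at 0.527 against 56.2 FPKM, Kdm5d was listed at 0 against 5.40 FPKM and Uty was listed at 0 against 3.00 FPKM. Ddx3y was within 2-fold at 18.7 against 36.2 FPKM. With VEGF-C, Xist was at 7.01 and 0.0763 FPKM, and Eif2s3y at 0 and 192 FPKM. The 343 described protein-coding genes of the X chromosome had a median of -0.66, against -0.59 for all described protein-coding genes. The 111 well-expressed ones had a median of 0.65. On the autosomes that value ran from 0.637 (chromosome 19) and 0.642 (chromosome 3) to 1.21 (chromosome 1), so the X chromosome lay within their range. How the difference in sex-linked RNA bears on the other genes was not tested.

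The libraries with VEGF-C came from the same groups of mice and share none of the samples above; their pair gave median log2 ratios of 5.47 for astrocyte, 1.90 for radial glia, -3.87 for myelin and -4.31 for microglia genes. In that pair the YFP-positive library was the one with more genes, 13528 against 9556. For cytosolic ribosomal proteins its median was -0.34, and for complex I -0.73, both of opposite sign to the pair without VEGF-C. Other lists recurred in part. The 7 lists of microglia functions had medians of -2.70 (phagocytic), -1.14 (lysosomal), -0.74 (chemokines), -0.13 (interleukins), 0.0 (complement), 0.0 (antigen presentation) and 0.58 (interferon-stimulated). Cholesterol synthesis was at -1.69, myelin lipid enzymes at -0.12 and DNA replication at 0.79. All these medians cover members described without VEGF-C. Beside the medians of 0.0, complement had 4 genes lower and 0 higher in both pairs, and antigen presentation had 7 and 0. With VEGF-C all found members of these 2 lists summed to 23.3 against 90.6 FPKM and to 555 against 2191 FPKM.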

How the data were processed

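RNA of sorted, cultured cells was sequenced in 1 pooled library per group after SMARTer amplification, per the labels' protocols. TopHat 2.0.9 mapped reads to mm10 as unstranded and without new junctions, and Cuffdiff of Cufflinks 2.1.1 estimated levels, per the series' design text; no source used here gives the annotation version. Antisense and overlapping genes cannot be told apart. The authors deposited FPKM, per the file headers. The authors also deposited normalized counts, treated as signal because they are not whole; 99.03% to 99.58% lay at whole multiples of a step per library, which gave implied fragments. Depth was 8561944 fragments for the YFP-positive and 16275369 for the YFP-negative library.

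Of 23361 rows, 27 with calendar dates for symbols were dropped. Symbols of 21707 rows (93.0%) matched GENCODE M21, and 1271 more matched through RefSeq synonyms. Ratios were log2((FPKM + 1) / (FPKM + 1)) over genes at 1 FPKM or more in either library. An FPKM of 0 may be a failed estimate and gets no fold. Fold intervals are exact conditional binomial intervals at 95% on implied fragments. Amplified fragments are not independent molecules. The computation was tested on simulated data. Some genes that the naming rule below covers are not reported here. With 1 library per group no test across genes was possible.

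The 81 gene lists and the comparison were chosen with earlier results of these data known; 4 symbols that a name pattern had wrongly caught were taken out of the tRNA synthetase list. Named genes were the 15 per direction with the most extreme ratio, the 10 most abundant per library, the 8 highest listed at 0 in the other library, the 6 most equal, Flt4, and members of lists at 10 FPKM or more or that define a cell type. Other named genes, such as Gusb, Mki67, Mir5136, Snord96a, Xist and list members of lower level, were chosen after their values were seen. Alternatives were other pseudocounts, filters, scalings, the normalized counts, equal depth and a 4-fold threshold; quantile normalization and a restriction to protein-coding genes were added after seeing the data.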

Additional observations from a re-analysis of the deposited data

Results flagged for a closer look

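Neuropeptides and granins had a median log2 ratio of -2.27 over 13 described members without VEGF-C and of 3.23 in the pair with it. The difference between the pairs, which have 1 library per group, was not tested. Ependyma and choroid plexus markers moved likewise, from -1.40 over 3 described members to 1.28, and this difference was not tested either. Both lists hold many members of low level, and the library with fewer genes is the YFP-positive one without VEGF-C and the YFP-negative one with it; the part of detection in either difference was not tested.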

How the results depend on the processing

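No paired analysis was possible because each group has 1 library, and for the same reason no library could be left out. Counts of higher genes stayed between 2281 and 3635 apart from 1909 at a mean of at least 20 FPKM, 1813 after setting the upper quartiles equal and 1835 at a 4-fold threshold. Counts of lower genes differed more: 1911 with a pseudocount of 10, 3420 with at least 5 FPKM in either library, 630 at a mean of at least 20 FPKM, 2946 with genes above 0 in both and 3500 at 4-fold. The share of higher among called genes (39.2%) became 55.2%, 47.7%, 75.2%, 51.3% and 34.4% in that order, 27.5% after centring, 21.8% with equal upper quartiles and 45.3% after quantile normalization. The median of all genes (-0.66) became -0.19 with a pseudocount of 10, -0.31 with no filter, -1.33 after centring, -1.52 with equal upper quartiles, -0.87 in normalized counts and -0.25 after quantile normalization. It turned to 0.0338 with at least 5 FPKM, 0.995 at a mean of at least 20 FPKM and 0.18 with genes above 0 in both. The cause of these shifts was not tested, except that the filters remove genes of low level by construction. Thinning to equal depth and a pseudocount of 0.1 kept all 4 values on their side. Of 81 list medians, 17 of those past 2-fold turned under some setting. With at least 5 FPKM these were GABAergic neurons (1.49), oligodendrocyte precursors (1.34), newly formed oligodendrocytes (0.0112), macrophage lineage factors (1.85), growth factor ligands (0.67), ERK feedback regulators (0.16) and annexins (1.41). With genes above 0 in both they were the same lists (1.08, 1.10, 0.87, 1.70, 1.03, 0.39 and 1.41) and clustered protocadherins (1.68). At a mean of at least 20 FPKM they were newly formed oligodendrocytes (0.0112), growth factor ligands (2.23), ERK feedback regulators (0.54), neuropeptides (0.83), interleukins (1.79), interferon-stimulated genes (1.52), DNA replication (0.25) and annexins (2.34). With no filter, Notch genes (-0.0376), growth factor receptors (-0.0212) and semaphorins (-0.0235) turned. After quantile normalization, mature neurons (0.16), ependyma (0.54) and growth factor ligands (0.36) did. Of 464 named genes past the filter, 6 turned with equal upper quartiles: Fdps (-0.0387), H2afz (-0.0794), Ifitm3 (-0.0786), Rpl41 (-0.10), Sox10 (-0.071) and Zfp536 (-0.0733). At the depth of the YFP-positive library, a gene listed at 0 may lie under the limit that a count of 0 allows.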
